A study of Mus musculus with 4 samples.

Results

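The genes described here act when a cell enters mitosis and divides. The set held 39 genes of 36838 gene symbols or, where no symbol matched, accessions with a value on all 4 arrays, and was chosen by name for the role of its genes. They fell into 5 arms of 10 cyclins, CDK1 and mitotic kinases, 7 genes of the spindle checkpoint and anaphase, 9 of the centromere and kinetochore, 10 of the spindle and cytokinesis, and 3 of chromosome structure and transcription. They were read by 55 probes, and all 55 were well above background on all 4 arrays.

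NIH-3T3 cells, an established line of mouse fibroblasts, were grown to confluency in medium with serum. The labels give 1 untreated culture and 1 culture each with 20 µM of AR7, CA39 or CA77 for 24 h, read on 1 one-colour array each. AR7, CA39 and CA77 are small molecules that activate chaperone-mediated autophagy, in which selected proteins pass one by one into lysosomes. They act on the retinoic acid receptor alpha, and CA39 and CA77 were designed from the scaffold of AR7. DMSO was the solvent of all 3 compounds and the control is labelled untreated, so vehicle and compound cannot be told apart in what all 3 treated cultures share. With 1 array per group no test was possible, and every difference compares 2 arrays.

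Most mitotic genes are silent after division and are transcribed again late in the cell cycle, from S phase into G2 phase. In resting cells a repressor complex called DREAM holds them off through short promoter elements. In cycling cells B-MYB, the MuvB core and FOXM1 turn the same promoters on, and CDK1 with a cyclin B then starts mitosis. Their transcripts are most abundant in G2 phase and mitosis, and in RNA of a whole culture fewer dividing cells and less RNA per dividing cell cannot be told apart.

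Values are quantile-normalized log2 intensities of the brightest probe of a gene. Differences are log2 differences. Repeat spots of 1 probe on 1 array set a tolerance of 0.16 for a difference between 2 arrays. It is 1 SD of a difference between single spots, so spot error alone puts some unchanged genes beyond it, and it leaves out the error between cultures. "Higher" and "lower" below mean beyond this tolerance unless the text says "by any amount".

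The promoters of the set share sequence elements that the choice by name did not use. The table of promoters (RefSeq, GRCm38.p6, 250 bases before to 50 after each start) held 32 of the 39 genes, and Kif20a, Aurkb, Ccna2, Cdc25c, Incenp, Foxm1 and Tpx2 were not in it. The cell cycle genes homology region (CHR, searched on both strands as TTTGAA and as TTCGAA, the second of which reads the same on both) was present in 26 of 32 promoters (81.2%), against 21.7% of the 27025 genes with a promoter. The CCAAT box, searched as these letters on both strands, was present in 25 of 32 (78.1%), against 41.1%. Both were present in 23 of 32 (71.9%), against 9.65%. The elements were not particular to the 39 genes. Of 57 other mitotic genes, 64.9% held the CHR, 70.2% the CCAAT box and 49.1% both. Of 23 DNA replication genes, 21.7% held the CHR, 60.9% the CCAAT box and 17.4% both. The motifs can share 1 base at their ends, and a match is a description, not a site or a cause.

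The 100 bases before the start of 7 of these genes are shown, with CHR and CCAAT matches in capitals. Ccnb2 and Espl1 are the genes farthest below untreated with CA39, and Cdk1, Ccnb1, Cdc20 and Kif11 stand for the entry into mitosis, anaphase and the spindle. Ndc80 is the 1 gene above untreated with CA39 by any amount, at 0.13 and so within the tolerance. Each is written 5′ to 3′ on the strand of its gene, and coordinates are those of GRCm38.p6.
Ccnb1 (chr13:100786487-100786586, reverse strand): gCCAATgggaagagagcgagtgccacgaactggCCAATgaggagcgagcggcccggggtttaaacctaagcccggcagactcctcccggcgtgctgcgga
Ccnb2 (chr9:70421555-70421654, reverse strand): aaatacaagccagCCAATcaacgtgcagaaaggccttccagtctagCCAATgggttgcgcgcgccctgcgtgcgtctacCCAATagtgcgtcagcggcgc
Cdk1 (chr10:69352913-69353012, reverse strand): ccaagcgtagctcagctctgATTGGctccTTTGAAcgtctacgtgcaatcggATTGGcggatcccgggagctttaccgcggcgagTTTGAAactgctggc
Espl1 (chr15:102296193-102296292, forward strand): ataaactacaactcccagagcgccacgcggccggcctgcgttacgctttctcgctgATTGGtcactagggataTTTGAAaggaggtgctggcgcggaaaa
Cdc20 (chr4:118437344-118437443, reverse strand): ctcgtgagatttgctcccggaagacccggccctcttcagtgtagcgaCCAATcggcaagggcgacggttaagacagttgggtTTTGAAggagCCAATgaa
Kif11 (chr19:37376282-37376381, forward strand): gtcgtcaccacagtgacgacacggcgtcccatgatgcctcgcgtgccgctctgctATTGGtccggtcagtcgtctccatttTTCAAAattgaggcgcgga
Ndc80 (chr17:71526858-71526957, reverse strand): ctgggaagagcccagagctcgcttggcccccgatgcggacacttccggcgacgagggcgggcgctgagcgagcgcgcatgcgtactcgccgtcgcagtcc

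In Espl1 the CCAAT match began at base -44 and the CHR at -27, with the base before the start as -1, and in Kif11 they began at -45 and -19. Cdk1 held both elements more than once. Ccnb1 held CCAAT matches without a CHR in the window, and Ccnb2 held 3 CCAAT matches in the stretch shown, with its CHR matches outside it. Ndc80 held a CHR after the start and no CCAAT match. With CA39 the median difference was -0.35 over the 26 genes that held a CHR (range -0.93 to 0.13) and -0.29 over the 6 that did not (range -0.38 to -0.12), so the ranges overlapped.

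As a set, the 39 genes were lower with CA39 and near untreated with AR7 and CA77. Their median difference from untreated was -0.34 with CA39 (range -0.93 to 0.13), -0.05 with CA77 (range -0.39 to 0.39) and 0.05 with AR7 (range -0.14 to 0.29). The medians over all genes that could be compared with untreated were -0.02 (27893 genes), -0.04 (28126 genes) and -0.03 (27854 genes). With CA39, 34 of 39 genes were lower and 0 higher, where 32.8% of all genes were lower and 20.9% higher. With CA77, 8 were lower and 3 higher, where 30.6% of all genes were lower and 19.5% higher. With AR7, 10 were higher and 0 lower, where 14.9% of all genes were higher and 26.4% lower. The counts with AR7 and CA77 depended on the signal column and scaling, and were 3 higher (AR7) and 5 lower (CA77) with the 75th percentile scaling of the processed signal. Under this scaling 34.9% of all genes were lower with CA77, and the share higher with AR7 is not given.

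The sizes were small. The number of mitotic genes past 2-fold was 0 with each compound, where 3.14% (AR7), 5.33% (CA39) and 3.3% (CA77) of all genes were, and only the 75th percentile scaling, of the alternatives run, put 1 gene past it (Ccnb2 with CA39, -1.07). With CA39, Ccnb2 and Espl1 were past 1.5-fold lower (2 of 39), where 5% of all genes were. The lower level with CA39 was spread over the set, and 38 of the 39 lay below untreated by any amount, where 53.2% of all genes did. In genes detected on all arrays with levels between the quartiles of the mitotic genes (log2 12.84 to 14.87, 3529 genes), the median difference with CA39 was 0.00 with an SD of 0.37, and 26% were lower. With CA77, 16.6% of these genes were lower and 15% higher, against 20.5% and 7.69% of the mitotic genes. With AR7, 14.3% were lower and 13.1% higher, against 0% and 25.6% of the mitotic genes.

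**Figure D1:**
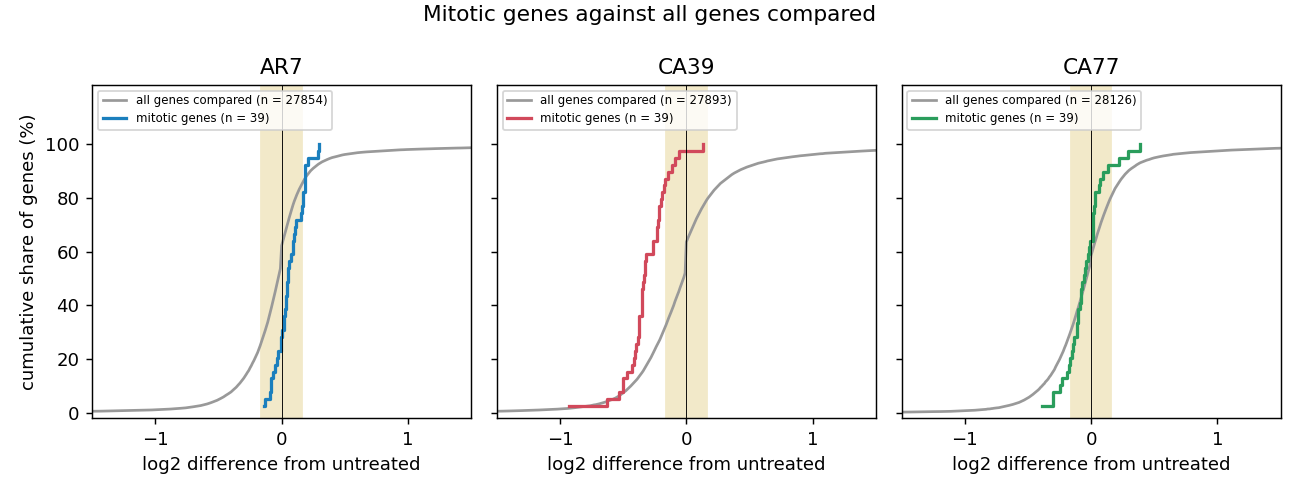
Cumulative share of genes (%) against the log2 difference from untreated for AR7, CA39 and CA77, for the 39 mitotic genes (coloured steps) and all genes compared (grey), with the tolerance of 0.16 shaded. The jump of the grey curves at 0 holds genes whose brighter array was not well above background, whose difference was set to 0. With CA39 the curve of the mitotic genes lies left of that of all genes, and 34 of 39 lie left of the shaded band.

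CA39 was the lowest of the 4 arrays in 35 of 39 genes by any amount, where 37.8% of the 20594 genes detected on all arrays were. It was below all 3 other arrays by more than the tolerance in 26 of 39, where 17% of genes were. The untreated array was lowest in 1 gene, CA77 in 3 and AR7 in 0, where they were lowest in 17.9%, 24% and 19.9% of genes. At the other end, AR7 was highest in 25 of the 39, untreated in 9, CA77 in 5 and CA39 in 0, where they were highest in 21.9%, 26.7%, 20.9% and 30.3% of genes. AR7 was above all 3 other arrays by more than the tolerance in only 6 of the 39. It was above untreated by any amount in 28 of the 39 (10524 of all 27854 genes), but in 20 with the 75th percentile scaling of the processed signal.

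**Figure D2:**
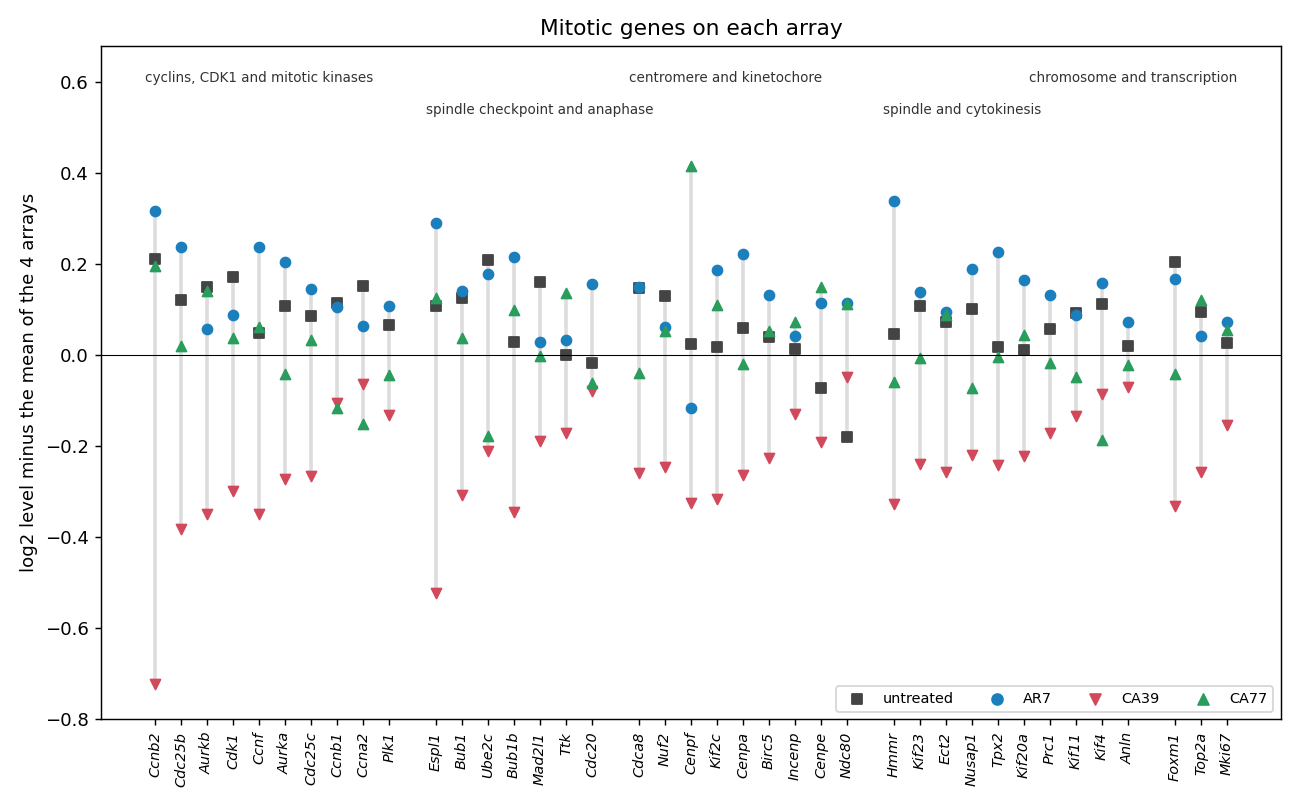
Level of each of the 39 mitotic genes on the 4 arrays as the log2 level minus the mean of the gene's 4 arrays, with genes grouped by arm and ordered by their difference with CA39. Each point is 1 array and the grey bar spans the 4 arrays. CA39 is the lowest point in 35 of 39 genes, and Ccnb2 and Espl1 reach farthest down.

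The arm of cyclins, CDK1 and mitotic kinases drives the entry into mitosis. All 10 genes were lower with CA39, with a median difference of -0.39, against 0.05 with AR7 and -0.11 with CA77. Ccnb2 encodes cyclin B2, a partner of CDK1, and had levels of 14.25 (untreated), 14.36 (AR7), 13.32 (CA39) and 14.24 (CA77). CA39 stood alone, with 52.4% of the untreated signal (1.91-fold lower), while the other 3 arrays lay within the tolerance of each other. Ccnb1, the main mitotic cyclin, had levels of 13.96 (untreated), 13.95 (AR7), 13.73 (CA39) and 13.72 (CA77). Here CA39 and CA77 were alike and both lay below untreated, at -0.22 and -0.23. The dimmer Ccnb1 probes gave -0.44 and -0.52 with CA39 but -0.02 and -0.12 with CA77, so that the likeness of the compounds rested on the brightest probe.

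Cdk1, the kinase that starts mitosis, had levels of 15.44 (untreated), 15.35 (AR7), 14.96 (CA39) and 15.30 (CA77), a difference of -0.47 with CA39. Its other probes gave -0.73 and, for the dimmest, -0.14 with CA39. With CA77 the brightest probe was within the tolerance (-0.13), but these probes were beyond it, at -0.26 and, for the dimmest, -0.34. Ccna2, cyclin A2 of S and G2 phase, had levels of 14.57 (untreated), 14.48 (AR7), 14.35 (CA39) and 14.27 (CA77), and was lowest with CA77. Ccnf, cyclin F, a part of a ubiquitin ligase that removes cell cycle proteins, had levels of 14.83 (untreated), 15.02 (AR7), 14.43 (CA39) and 14.84 (CA77), with AR7 above untreated by 0.19 and CA39 below it at -0.40. The cyclins thus shared a direction with CA39 and spread over sizes from 0.22 to 0.93.

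The phosphatases Cdc25b and Cdc25c remove the phosphates that keep CDK1 off. Cdc25b had levels of 14.26 (untreated), 14.38 (AR7), 13.76 (CA39) and 14.16 (CA77) and Cdc25c of 10.65 (untreated), 10.71 (AR7), 10.30 (CA39) and 10.60 (CA77). Both were lowest with CA39, at -0.50 and -0.35 from untreated, and lay within the tolerance of untreated with the other compounds. The kinase Plk1, which acts on centrosomes, kinetochores and CDC25, had levels of 15.40 (untreated), 15.45 (AR7), 15.21 (CA39) and 15.29 (CA77), a smaller difference of -0.20 with CA39.

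Aurka, the Aurora kinase of the spindle poles, had levels of 14.93 (untreated), 15.03 (AR7), 14.55 (CA39) and 14.78 (CA77). Aurkb, the Aurora kinase of the centromere and the midzone, had levels of 9.20 (untreated), 9.11 (AR7), 8.70 (CA39) and 9.19 (CA77). CA39 was the lowest array for both Aurora kinases, and AR7 and CA77 lay within the tolerance of untreated.

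The spindle checkpoint holds anaphase until every chromosome is attached, and the anaphase genes then cut the sister chromatids apart. With CA39, 6 of 7 genes were lower, with a median of -0.37, against 0.03 with AR7 and -0.04 with CA77. Espl1 encodes separase, the protease that opens cohesin, and had levels of 12.78 (untreated), 12.96 (AR7), 12.15 (CA39) and 12.79 (CA77). Its difference of -0.63 with CA39 (1.55-fold lower) was the second of the set in size, and AR7 lay above untreated by 0.18. Bub1b, the checkpoint protein BUBR1, had levels of 13.78 (untreated), 13.97 (AR7), 13.41 (CA39) and 13.85 (CA77). Ttk, the checkpoint kinase MPS1, had levels of 10.10 (untreated), 10.13 (AR7), 9.93 (CA39) and 10.24 (CA77). Bub1b had CA39 as lowest and AR7 as highest array, and for Ttk CA39 was lowest with CA77 highest.

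Bub1, a checkpoint kinase of the kinetochore, is the 1 gene of the set whose probe was printed 10 times on each array. Its spots had a mean level of 13.15 ± 0.07 (SD, 9 spots) on untreated, 13.16 ± 0.06 (9 spots) with AR7, 12.71 ± 0.11 (10 spots) with CA39 and 13.06 ± 0.12 (10 spots) with CA77. The highest CA39 spot, at 12.82, lay below the lowest untreated spot, at 13.05, and the lowest AR7 spot, at 13.07. It overlapped with CA77, whose lowest spot was 12.79. These spots share 1 RNA sample and measure the array, not the culture.

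**Figure D3:**
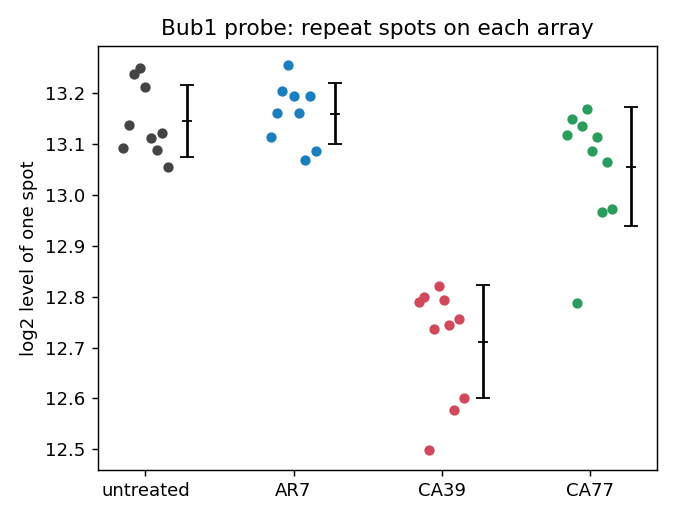
Log2 level of each repeat spot of the Bub1 probe on the 4 arrays (9, 9, 10 and 10 spots), with the mean and SD of the spots as a black bar at the right of each column. The CA39 spots lie below every untreated and AR7 spot, and 1 CA77 spot falls among the highest CA39 spots.

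Mad2l1, the checkpoint protein that binds CDC20, had levels of 15.09 (untreated), 14.95 (AR7), 14.74 (CA39) and 14.92 (CA77). Its difference with CA39 was -0.35, and -0.55 and -0.54 by the dimmer probes. With CA77 the probes went different ways, with -0.16 by the brightest and 0.11 and 0.20 by the others, so no direction is given. Cdc20, which activates the anaphase-promoting complex (APC/C), had levels of 15.12 (untreated), 15.30 (AR7), 15.06 (CA39) and 15.08 (CA77). It was the gene of this arm that CA39 left within the tolerance of untreated (-0.06), while AR7 was above it by 0.17. Both calls depended on the scaling, with -0.205 with CA39 and 0.074 with AR7 by the 75th percentile scaling of the processed signal. Ube2c, the ubiquitin-conjugating enzyme of the APC/C, had levels of 14.85 (untreated), 14.82 (AR7), 14.43 (CA39) and 14.47 (CA77). Its difference with CA77 was -0.39 by this probe and -0.20 by the other, against -0.42 and -0.33 with CA39.

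The centromere and kinetochore genes build the plate that holds spindle fibres. With CA39, 6 of 9 were lower and the median was -0.32, against 0.09 with AR7 and 0.06 with CA77. Of the 5 genes of the set within the tolerance with CA39, this arm held Ndc80, Cenpe and Incenp, and the others were Cdc20 and Anln. With the 75th percentile scaling of the processed signal, 38 of the 39 were lower with CA39, where 38.6% of all genes were. Cenpe, Incenp, Cdc20 and Anln were among them. Ndc80, a subunit of the complex that grips microtubules, had levels of 12.33 (untreated), 12.62 (AR7), 12.46 (CA39) and 12.62 (CA77). It was the 1 gene above untreated with CA39 by any amount (0.13, within the tolerance), and AR7 and CA77 were both above untreated by 0.29. Nuf2, which pairs with NDC80 in the same complex, had levels of 13.15 (untreated), 13.08 (AR7), 12.77 (CA39) and 13.07 (CA77), so that the partners lay on opposite sides of untreated with CA39.

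Cenpe, the kinetochore motor that moves chromosomes to the middle, had levels of 14.90 (untreated), 15.09 (AR7), 14.79 (CA39) and 15.13 (CA77), with CA39 within the tolerance of untreated and AR7 and CA77 above it. With the 75th percentile scaling of the processed signal Cenpe was lower with CA39 (-0.282) and within the tolerance with AR7 (0.106). Cenpf, a large protein of the outer kinetochore, had levels of 7.32 (untreated), 7.18 (AR7), 6.97 (CA39) and 7.71 (CA77), the dimmest of the set. Its range over the arrays was wide, with 0.39 with CA77 and -0.35 with CA39, and its value with CA39 moved to -0.56 with the scanner's processed signal and to -0.74 with the 75th percentile scaling of that signal. Cenpa, the histone H3 variant that marks the centromere, had levels of 14.47 (untreated), 14.63 (AR7), 14.14 (CA39) and 14.39 (CA77). Cenpa was lowest with CA39 and highest with AR7, both beyond the tolerance from untreated.

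The chromosomal passenger complex of INCENP, survivin and borealin places Aurora B at the centromere. Incenp had levels of 15.90 (untreated), 15.93 (AR7), 15.76 (CA39) and 15.96 (CA77), within the tolerance of untreated on every array. With the 75th percentile scaling of the processed signal Incenp was lower with CA39, at -0.315. Birc5, which encodes survivin, had levels of 16.82 (untreated), 16.91 (AR7), 16.55 (CA39) and 16.83 (CA77). Cdca8, which encodes borealin, had levels of 12.05 (untreated), 12.06 (AR7), 11.65 (CA39) and 11.87 (CA77). CA39 was the lowest array for all 3. Kif2c, a kinesin that takes microtubules apart at kinetochores, had levels of 10.95 (untreated), 11.11 (AR7), 10.61 (CA39) and 11.04 (CA77), with AR7 and CA39 on opposite sides of untreated.

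The spindle and cytokinesis genes had the smallest shift of the arms with CA39. Of 10 genes, 9 were lower and the median was -0.25, against 0.06 with AR7 and -0.09 with CA77. Hmmr, a spindle protein, had levels of 13.92 (untreated), 14.21 (AR7), 13.54 (CA39) and 13.81 (CA77), and the distance of -0.67 from AR7 to CA39 was the widest of this arm. Tpx2, which activates Aurora A on the spindle, had levels of 13.88 (untreated), 14.10 (AR7), 13.63 (CA39) and 13.86 (CA77). Its other, dimmer probe gave -0.26 with AR7, -0.56 with CA39 and -0.61 with CA77, so the probes were both beyond the tolerance in 1 direction with CA39 only. Nusap1, which bundles spindle microtubules, had levels of 13.82 (untreated), 13.90 (AR7), 13.49 (CA39) and 13.64 (CA77).

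The motor Kif11, which pushes the spindle poles apart, had levels of 11.90 (untreated), 11.89 (AR7), 11.67 (CA39) and 11.75 (CA77). Kif20a and Kif23, motors of the midzone needed for cytokinesis, had levels of 14.06 (untreated), 14.21 (AR7), 13.83 (CA39) and 14.09 (CA77) and of 13.59 (untreated), 13.62 (AR7), 13.25 (CA39) and 13.48 (CA77). Kif4, a chromosome-bound motor, had levels of 11.86 (untreated), 11.90 (AR7), 11.66 (CA39) and 11.56 (CA77). Of these 4 motors, all were lower with CA39, and Kif4 was lowest with CA77.

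Prc1, which crosslinks microtubules of the midzone, had levels of 15.01 (untreated), 15.09 (AR7), 14.78 (CA39) and 14.94 (CA77). Ect2, which switches on RhoA for the contractile ring, had levels of 14.12 (untreated), 14.15 (AR7), 13.79 (CA39) and 14.14 (CA77). Anln, anillin, a scaffold of that ring, had levels of 15.76 (untreated), 15.81 (AR7), 15.67 (CA39) and 15.72 (CA77). Anln had the flattest profile of this arm, with CA39 at -0.09, while Prc1 and Ect2 were lower with CA39.

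The last arm holds Top2a, the enzyme that untangles chromosomes, Mki67, which encodes the Ki-67 proliferation antigen, and Foxm1, the transcription factor of mitotic genes. Top2a had levels of 14.28 (untreated), 14.22 (AR7), 13.93 (CA39) and 14.30 (CA77) and Mki67 of 15.23 (untreated), 15.28 (AR7), 15.05 (CA39) and 15.26 (CA77). CA39 was lowest for both, and the other 3 arrays lay within the tolerance of each other. For Mki67 the difference with CA39 was -0.18 by this probe and -0.10, within the tolerance, by the other. Foxm1 had levels of 13.77 (untreated), 13.73 (AR7), 13.23 (CA39) and 13.52 (CA77). It was lower with CA39 (-0.54) and with CA77 (-0.25), and its other probe gave -0.48 with CA39 and -0.08 with CA77.

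Genes with several probes gave a second reading of the same transcripts. With CA39, all probes of a gene lay below untreated by any amount in 12 of 12 such genes, where this held for 36.6% of the 3271 genes with several probes detected on all arrays. With CA77 the probes of a gene were all below untreated in 6 and all above in 4 (29.7% and 29.2% of such genes). With AR7, for which 11 genes had a value of every probe, they were all below in 3 and all above in 3 (34.5% and 26.9% of such genes). By probe, 54 of 55 were below untreated with CA39 by any amount, and 47 were beyond the tolerance, where 52.8% and 30.2% of all detected probes with a symbol were. The probes of a gene differed by a median of 0.10 with CA39 and by up to 0.58, for Cdk1.

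**Figure D4:**
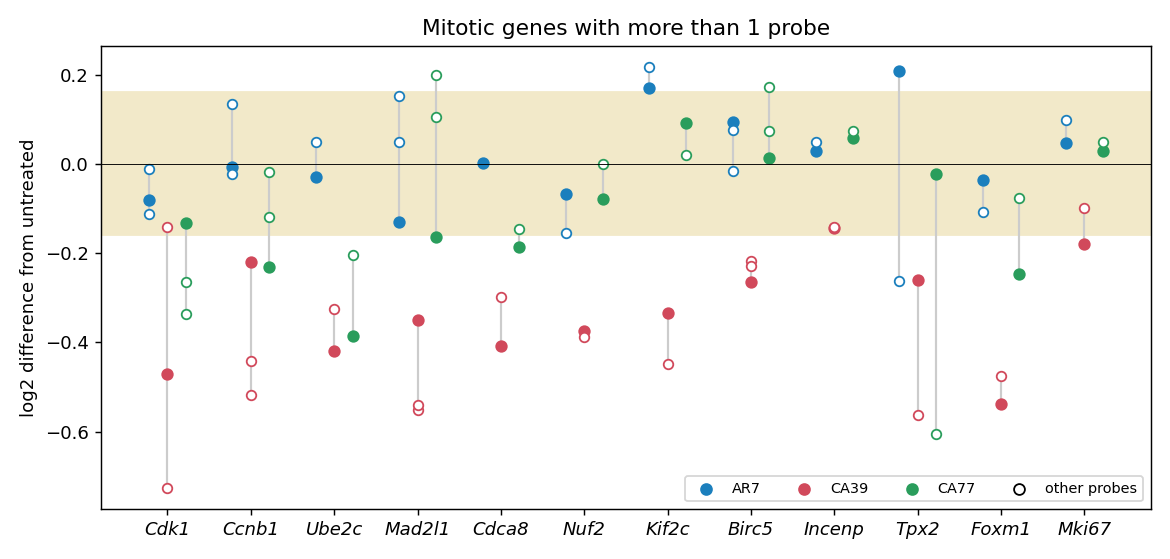
Log2 difference from untreated for every probe of the 12 mitotic genes with more than 1 probe, by compound, with the brightest probe of each gene filled and the others open, and the tolerance of 0.16 shaded. All CA39 points lie below 0, while AR7 and CA77 points of several genes, such as Mad2l1, lie on both sides.

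AR7, CA39 and CA77 were given at the same dose for the same time, so their arrays can be set side by side in 3 pairs, with no test. CA39 was below AR7 by any amount in 39 of 39 genes (54.5% of all genes), with a median difference of -0.38 (all genes -0.03). In this pair 37 were lower, where 34% of all genes were, and Ccnb2, at -1.04, was past 2-fold. CA39 was below CA77 by any amount in 36 of 39 (53.2% of all genes), with a median of -0.26 (all genes -0.02), and 28 were lower, where 31% of all genes were. CA77 lay closer to AR7, with a median of -0.12 (all genes 0.00), 15 lower and 1 higher (Cenpf), where 19.8% of all genes were lower and 19.8% higher. The arms kept this order, since the median of every arm was lower in CA39 than in AR7 (-0.41 to -0.30) and than in CA77 (-0.32 to -0.19).

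The other cell cycle lists were set beside the mitotic genes. Of 69 further mitotic genes measured, 47 were lower and 0 higher with CA39, with a median of -0.25, where 32.8% of all genes were lower and 20.9% higher. The lowest were Iqgap3 (-0.66), Psrc1 (-0.65), Gtse1 (-0.65) and Ckap2 (-0.63). With AR7 and CA77 the medians of this list were 0.06 and 0.04. Lower levels with CA39 were also found in this list beyond the 39 genes.

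Genes of DNA replication, the step before mitosis, had a like median with CA39. Of 28 genes 19 were lower and 2 higher (all genes 32.8% and 20.9%), with a median of -0.31, against -0.05 with AR7 and -0.05 with CA77. Tyms, thymidylate synthase, was at -0.93, Rrm2, a subunit of ribonucleotide reductase, at -0.47 and Mcm2, a subunit of the replicative helicase, at -0.39. Pcna, the sliding clamp, was at -0.10, and Rfc3, a subunit of the clamp loader, was among the higher genes at 0.32. Among 8 G1 cyclins and kinases 4 were lower and 0 higher with CA39 (all genes 32.8% and 20.9%), with Ccne2 at -0.68, Cdk6 at -0.58, Cdk2 at -0.51 and Ccnd3 at -0.32, while Ccnd1, the cyclin that growth factors induce, was at -0.02.

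The regulators of mitotic genes shifted less as a list. Of 20 genes of the DREAM and MYB-MuvB complexes and of related E2F and NF-Y factors, 6 (30%) were lower and 1 higher with CA39 and the median was -0.09. E2f2, an activator of S phase genes, was at -0.74, Mybl2, which encodes B-MYB, at -0.50 and Rbbp4, a MuvB subunit, at -0.45. The other lower genes were Nfya (-0.34), a subunit of the CCAAT-binding factor, and E2f8 (-0.32) and E2f1 (-0.28). Rb1, the retinoblastoma repressor, was the 1 higher gene at 0.41. Of 18 brakes of CDK1 and APC/C genes, 6 (33.3%) were lower and 2 higher, with a median of -0.02. Both shares lower are near the 32.8% of all genes. Among the lower ones were Wee1 (-0.22) and Pkmyt1 (-0.32), the kinases that hold CDK1 off, and the APC/C partners Fbxo5 (-0.30) and Ube2s (-0.38).

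Of 7 CDK inhibitors, which stop the cycle, 4 were measured and Cdkn1c, Cdkn2a and Cdkn2b were not well above background on any array. Cdkn1b, which encodes p27, was higher with CA39 (0.29), with levels of 13.05 (untreated), 12.98 (AR7), 13.34 (CA39) and 12.77 (CA77). Cdkn2d was also higher with CA39 (0.18), while Cdkn1a (-0.05) and Cdkn2c (-0.06) lay within the tolerance, so that 2 of 4 were higher, where 20.9% of all genes were. CA39 was above CA77 by any amount in all 4, where 43.1% of all genes were. No gene of these cell cycle lists was past 2-fold against untreated with any of the 3 compounds.

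**Figure D5:**
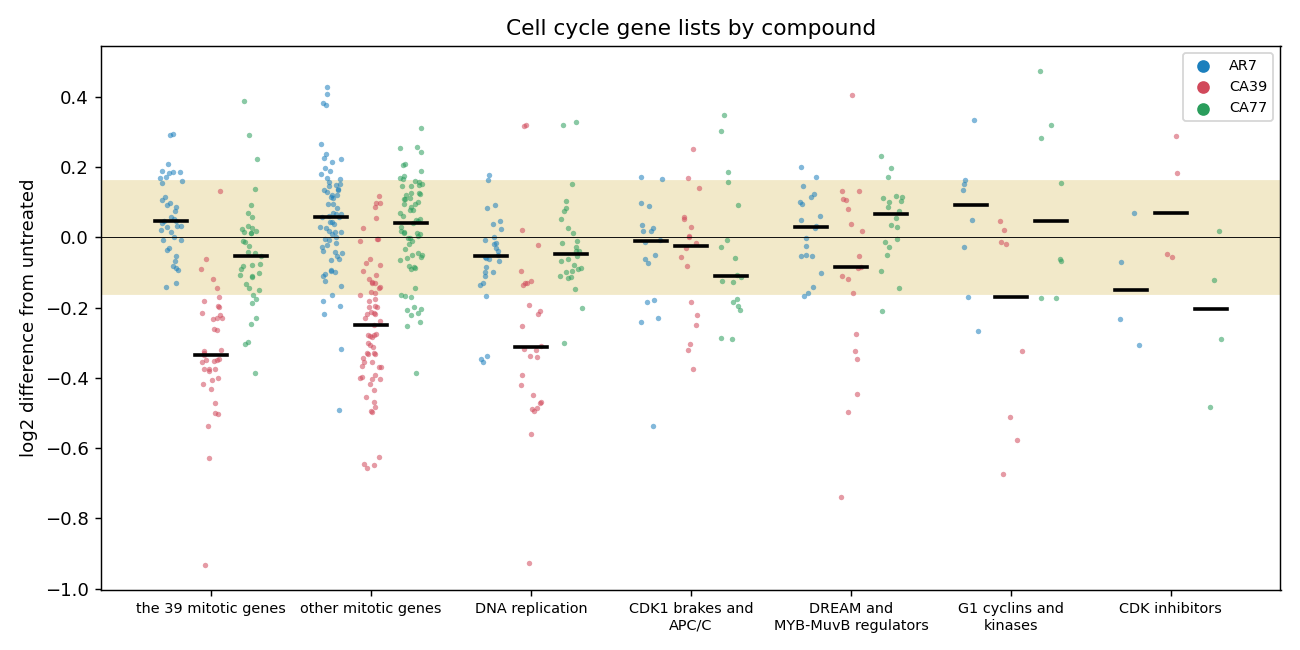
Log2 difference from untreated of each gene (points) and the median (black bar) of the 39 mitotic genes and 6 other cell cycle lists, by compound, with the tolerance of 0.16 shaded. With CA39 the mitotic genes, further mitotic genes and DNA replication genes lie lowest, with medians of -0.34, -0.25 and -0.31, and the CDK inhibitors lie at 0.07.

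Markers of fibroblasts were checked against the label of the cells. Of 10 markers 8 were well above background on all 4 arrays, and Pdgfrb and Fap on 1. The epithelial markers Cdh1 and Krt19 were not above background on any array and Epcam on 1, with Krt5 and Krt14 detected on all 4. Among leukocyte markers Cd68 was not matched, Cd3e and Itgam were detected on all 4 arrays and Ptprc on 2. Of the endothelial markers Pecam1, Cdh5 and Kdr were detected on all 4 and Tek on 1.

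The fibroblast markers went the other way to the mitotic genes with CA39. Of 10 measured, 8 were higher and 1 lower (all genes 20.9% and 32.8%), with a median of 0.55 (range -0.22 to 3.14, the highest a bound), against -0.22 with AR7 (range -1.05 to -0.04) and -0.28 with CA77 (range -0.83 to 0.07), each over 9 markers. Fn1, fibronectin, had levels of 16.52 (untreated), 16.30 (AR7), 17.98 (CA39) and 16.37 (CA77). Col1a1, the type I collagen chain, had levels of 15.59 (untreated), 14.55 (AR7), 16.65 (CA39) and 14.77 (CA77). Pdgfra, a growth factor receptor, was at 11.40 (untreated), 11.36 (AR7), 12.59 (CA39) and 11.31 (CA77). These 3 were past 2-fold higher with CA39, and Col1a1 was past 2-fold lower with AR7. Pdgfrb and Epcam were past 2-fold by a bound only, since they were well above background on the CA39 array alone. The epithelial markers Krt5 and Krt14 were also higher with CA39, at 0.60 and 0.32, and with AR7, at 0.17 and 0.27, and with CA77 Krt5 was at -0.01 and Krt14 at 0.18. Whether these shifts have a part in the lower mitotic genes was not tested.

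All arrays lay on 1 slide, the untreated array in row 1 of it and the treated arrays in row 2, and treatment cannot be told apart from this position. The CA77 array was read in scan 2 and the other 3 in scan 1, so scan and CA77 cannot be told apart. Probes well above background made up 69.7% of the untreated array and 52.9% (AR7), 52.3% (CA39) and 61.6% (CA77) of the treated ones. The part of position, scan and detection in the lower mitotic genes was not tested. By position within an array, the 18 mitotic genes in grid rows 1 to 160 of 384 had a median of -0.25 with CA39 (15 lower), and the 21 in the rows over 160 had -0.35 (19 lower), where 27.8% and 36.4% of all genes there were lower.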

How the data were processed

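Total RNA of 4 NIH-3T3 cultures was labelled with Cy3 and hybridised to 4 Agilent one-colour arrays of 1 slide. Per the file headers, the authors extracted spots with Feature Extraction 10.7.3.1, and the deposited values are linear spot intensities with a local background and quality marks. The deposited series table held the background-subtracted intensity at 62976 of 62976 spots of each array, within 0.01 units plus 1e-04 of the value. The processing tools named in the submitters' notes are oligo and RMA, and RMA values were not used here.

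Median spot intensity was corrected with normexp without offset in limma 3.58.1 (R 4.3.3), quantile normalized without control spots and put on the log2 scale. Spots flagged as non-uniform or outliers were left out and spots of a probe averaged. Detection of a probe required the scanner's mark for signal above background at more than 50% of its spots. Accessions named 27656 of 55681 probes through RefSeq GRCm38.p6, and a gene was read from its brightest probe. Undetected values below the lowest detected signal of their array were set to that floor, and a difference whose brighter side was not detected was set to 0. Past 2-fold means a log2 difference of at least 1 in size. The tolerance of 0.16 is the square root of 2 times the median over arrays of the median SD of detected probes (265 to 302 per array) among the 399 printed 10 times. The number of arrays limits the precision. The code was tested on simulated data.

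The 39 genes and all other lists were chosen with earlier results of these data known. All 39 are named with their levels, and of the other lists those farthest from untreated or of known role, chosen after their values were seen. Some list genes are not reported here. The alternatives were another scaling, signal column, offset, floor, filter, probe rule, grid region and threshold.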

Additional observations from a re-analysis of the deposited data

How the results depend on the processing

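The median difference of the mitotic genes from untreated ranged over 10 alternatives from -0.39 to -0.32 with CA39, from 0.01 to 0.06 with AR7 and from -0.10 to -0.04 with CA77, while that of all genes stayed between -0.07 and 0.00. The alternative of grid rows over 160 held only 21 of the 39 genes, and gave the -0.10 with CA77 and the -0.07 of all genes. All 60 recomputed medians, treated pairs included, moved by less than the tolerance of 0.16. Some of them could not move, since all 39 genes were well above background on all arrays. These were the medians with another floor, with no floor and filter, and with only genes detected on all arrays. Leaving out probes in clusters of deviating spots could not move them either, since no probe of the set lay in such a cluster. Of 585 recomputed differences of single genes, 572 moved by less than the tolerance and 11 by more. With the median over probes, a further 2 that had been beyond the tolerance changed sign, Mad2l1 with CA77 (0.106) and Tpx2 with AR7 (-0.027). Mad2l1 with AR7, within the tolerance in the main processing (-0.13), also changed sign (0.15). With the 75th percentile scaling of the processed signal, 3 genes were higher with AR7 and 5 lower with CA77 (10 and 8 in the main processing), and 1 gene, Ccnb2 with CA39, was past 2-fold. Under this scaling 34.9% of all genes were lower with CA77. With CA39, 38 of the 39 were lower under it (34 in the main processing), where 38.6% of all genes were. With the quantile-normalized processed signal the counts were 5 higher with AR7 and 4 lower with CA77, where 29.4% of all genes were lower with CA77. The cause of these shifts was not tested. In grid rows over 160, which hold 21 of the genes, 4 were higher with AR7 and 19 lower with CA39, where 36.4% of all genes there were lower with CA39. The shares of all genes higher with AR7 under these alternatives are not given. At a threshold of 1.5-fold, 2 genes passed with CA39, and beyond the tolerance in either direction 10 passed with AR7, 34 with CA39 and 11 with CA77. No paired analysis was possible because each group has 1 array. The error between cultures was not measured, and the tolerance of 0.16 is 1 SD of spot error, so a single gene near it is not resolved.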
